A study of Mus musculus with 15 samples.

Results

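Replication-dependent histone genes encode the core histones H2A, H2B, H3 and H4 and the linker histone H1 that package newly copied DNA. They were chosen here as the protein-coding genes of the deposited expression table whose symbols start with Hist1h, Hist2h, Hist3h or Hist4h, which gave 57 of 32152 genes. By histone type they were 6 H1, 13 H2A, 16 H2B, 10 H3 and 12 H4 genes. By cluster, 50 lay in Hist1 on chromosome 13, 4 in Hist2 on chromosome 3, 2 in Hist3 on chromosome 11 and 1 in Hist4 on chromosome 6.

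RNA of mouse embryonic stem cells of strain C57BL/6, kept in serum medium with leukemia inhibitory factor, was sequenced in 15 samples, 3 in each of 5 groups. The groups were 10 mM and 5 mM 2-deoxy-D-glucose (2-DG, an analog of glucose that inhibits glycolysis), 10 nM and 1 nM oligomycin (an inhibitor of the mitochondrial ATP synthase), all for 48 hours, and mock-treated control cells. The labels name the doses low and high inhibition of glycolysis and of oxidative phosphorylation, and give no time for the mock treatment. They do not say that the 3 samples of a group came from separate cultures, so p-values reflect the spread among the 3 samples of each group, which may be technical. Sequencing depth, worked out from the steps between low values, was 17.4 to 19.2 M reads (M, mega) per sample. Expression is in FPKM (fragments per kilobase of transcript, scaled to depth), which allows levels of genes of different length to be set side by side. The length is that of the annotated exons, from 312 to 7425 bases over the 57 genes. An RNA that ends before its annotation therefore gets too low a value.

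Genes of this family are transcribed mainly in S phase, in step with DNA synthesis. Most of their mRNAs have no introns and end not in a poly(A) tail but in a conserved stem-loop, which is bound by the stem-loop binding protein SLBP and cut to its final end with the help of the U7 small nuclear ribonucleoprotein. Some of the genes also give polyadenylated transcripts that run past the stem-loop. Whether the libraries were made from polyadenylated or from ribosomal-RNA-depleted RNA, and how reads that match several genes and reads of either strand were counted, is not given in the sources used here. In RNA from whole cultures, fewer cells of a type and less RNA per cell cannot be told apart.

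The stem-loop could be read from annotated transcripts (GENCODE M21, build GRCm38) for most of these genes. The search was for 2 fully complementary arms of 6 bases around a loop of 4, after the stop codon, with GG at the start, T before and A after the loop, and CC at the end. Such a stem-loop was found in 42 of 57 members (73.7%) and in 208 of 21699 protein-coding genes with an annotated stop codon (0.96%). The sequences of 4 members with results described further on are printed because they show 3 forms of the stem-loop and differ in the annotated length after it. Capitals mark the stem-loop, on the gene's own strand, 5' to 3'.
Hist1h1c: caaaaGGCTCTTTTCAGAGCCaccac
Hist3h2ba: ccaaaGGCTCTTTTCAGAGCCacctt
Hist1h3c: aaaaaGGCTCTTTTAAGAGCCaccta
Hist1h4i: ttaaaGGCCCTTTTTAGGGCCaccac
The stem-loop of Hist1h1c and Hist3h2ba was the most frequent form, found in 23 members of types H1, H2A, H2B and H3. That of Hist1h3c was found in 6 members and that of Hist1h4i in 2, the other being Hist2h4. Another 7 members, all of type H4, shared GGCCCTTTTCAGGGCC, and 4 members each had a form of their own. After the stem-loop, the annotated transcript ran on for 840 bases in Hist1h1c, 330 in Hist1h4i, 169 in Hist3h2ba and 74 in Hist1h3c. Hist1h2bc, which had the highest level among the H2B genes, had no such stem-loop in its annotated transcript, which is spliced within chr13:23684199-23692908. A stem-loop was found in 13 of the 17 members whose mean reached 1 FPKM in some group and in 29 of the other 40. Among the 17, the annotation of Hist1h3h, Hist1h3i and Hist1h4k ended at the stop codon, so the search could not find a stem-loop there. The same held for some of the 40, such as Hist1h1b and Hist1h2ai. These counts therefore do not show that the stem-loop is absent from the other members.

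Promoters, taken from RefSeq (build GRCm38.p6) as 250 bases before to 50 after the annotated start, were matched for 52 members. CCAAT, in either orientation, occurred in 44 of them (84.6%) and in 41.1% of the promoters of 27025 genes. TATAAA occurred in 31 (59.6%, against 15.7% of all), and the octamer ATTTGCAT, a sequence known from H2B promoters, in 10 (19.2%, against 2.0%). The octamer was in 6 H2A and 4 H2B promoters, the 2 types whose genes often stand head to head. All 41 matched promoters of types H1, H2A, H2B and H3 held CCAAT, against 3 of 11 H4 promoters. The promoters of 3 genes from different types are printed to show this difference, with CCAAT and TATAAA in capitals, 5' to 3' on the gene's strand.
Hist1h1c, chr13:23738557-23738856, plus strand: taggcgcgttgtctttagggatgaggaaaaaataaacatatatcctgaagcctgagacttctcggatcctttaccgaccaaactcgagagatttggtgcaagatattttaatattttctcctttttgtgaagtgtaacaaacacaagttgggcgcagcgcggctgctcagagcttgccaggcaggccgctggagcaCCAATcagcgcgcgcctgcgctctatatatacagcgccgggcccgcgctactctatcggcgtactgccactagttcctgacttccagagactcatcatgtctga
Hist1h3c, chr13:23745472-23745771, minus strand: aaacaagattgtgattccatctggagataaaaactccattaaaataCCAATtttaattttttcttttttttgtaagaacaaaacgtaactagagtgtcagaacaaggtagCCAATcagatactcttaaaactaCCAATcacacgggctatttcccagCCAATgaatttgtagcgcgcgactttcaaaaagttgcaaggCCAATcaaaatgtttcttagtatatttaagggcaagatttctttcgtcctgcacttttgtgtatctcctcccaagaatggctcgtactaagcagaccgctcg
Hist1h4i, chr13:22041313-22041612, minus strand: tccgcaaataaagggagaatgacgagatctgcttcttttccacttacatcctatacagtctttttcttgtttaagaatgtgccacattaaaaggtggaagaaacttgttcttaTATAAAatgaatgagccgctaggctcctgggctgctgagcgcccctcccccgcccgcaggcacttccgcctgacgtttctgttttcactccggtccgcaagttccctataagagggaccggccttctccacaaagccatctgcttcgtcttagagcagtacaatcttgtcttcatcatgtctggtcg
The Hist1h3c window held CCAAT at 5 places, and the Hist1h4i window held none but had TATAAA once. A match is only a match of letters within this window.

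Most of the family was near the lower limit of the measurement. Only 17 of 57 members (29.8%) reached a mean of 1 FPKM in any group, against 11866 of 19184 protein-coding genes (61.9%), and the median member had a mean of 0.276 FPKM over the 15 samples. The 40 lower members had 0 to 37 reads per sample, with a median of 3. Their median annotated length was 723 bases, against 534 for the 17. Hist1h4k, among the 17 with 312 bases, had 1 to 9 reads per sample, so the split also rests on annotated length. The 17 were 1 of 6 H1, 4 of 16 H2B, 7 of 10 H3 and 5 of 12 H4 genes, and none of the 13 H2A genes. The levels spread widely within a type, as Hist1h1c among the H1 genes, Hist1h2bc among the H2B genes and Hist1h4i among the H4 genes stood above 5 FPKM in at least 1 group, and no other member did.

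**Figure D1:**
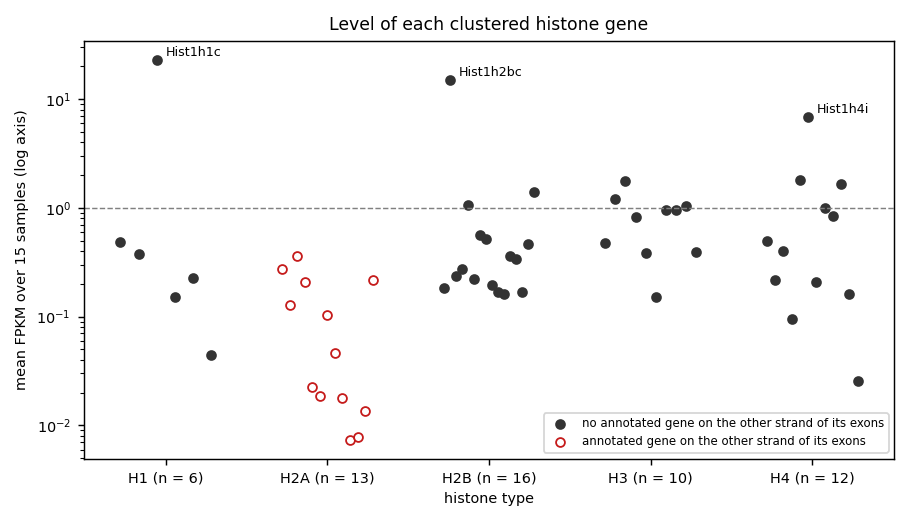
Mean FPKM of each of the 57 members over the 15 samples (log axis), by histone type. Open red points are members whose exons overlap an annotated gene on the other strand, and the dashed line is at 1 FPKM. The 13 H2A genes are all open points and all lie under the line, and Hist1h1c, Hist1h2bc and Hist1h4i stand above the other members of their types.

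All 13 H2A genes had exons that overlapped an annotated gene on the other strand, which the annotation types as a miRNA and which was 138 to 144 bases long. No member of another type had such an overlap. The members also shared sequence with each other and with other genes. Of the words of 50 bases in a member's transcripts, the median share found in another gene was 67.1% for H2A, 57.2% for H3, 46.9% for H2B, 34.2% for H4 and 1.2% for H1 genes. It was 49.7% for the members with at least 1 FPKM and 44.0% for the others. Reads from shared stretches cannot be assigned to 1 gene, so the levels of members with much shared sequence, such as Hist1h3h (93.9%), Hist1h4m (89.8%), Hist1h3i (87.6%), Hist1h4n (85.6%) and Hist1h4k (71.5%), are uncertain. The part of the overlaps, of shared sequence and of annotated length in the low levels was not tested.

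**Figure D2:**
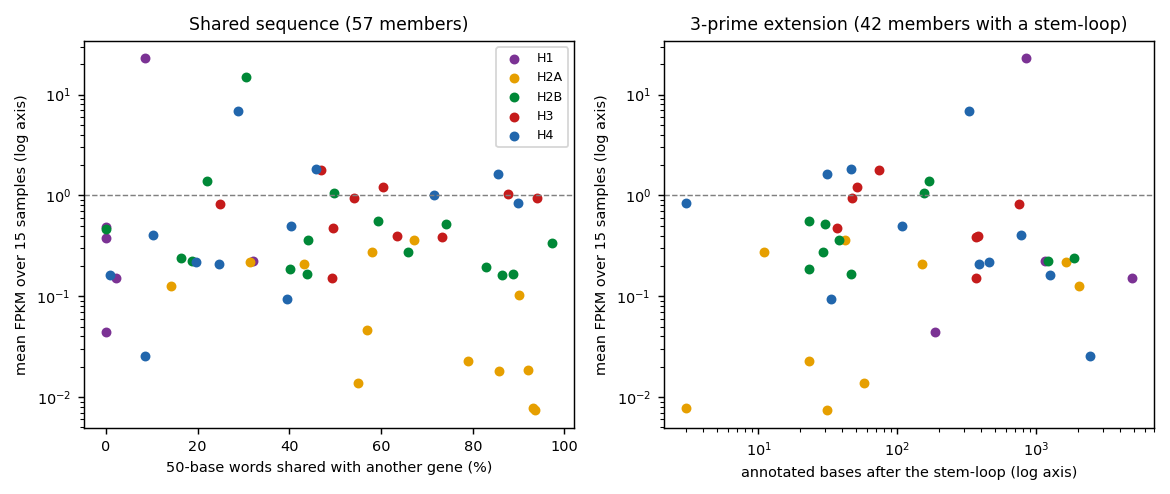
Mean FPKM of members over the 15 samples (log axis) against the share of 50-base words found in another gene (left, 57 members) and against the annotated bases after the stem-loop (right, 42 members, log axis), coloured by histone type. Levels above and under 1 FPKM occur at low and at high shares of shared sequence. Hist1h1c, with the highest level, has a share of 8.5% and 840 bases after the stem-loop. Members with more bases after it than Hist1h1c, up to 4884 in Hist1h1d, all lie under 1 FPKM.

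Summed over all members of a type, low ones included, the H3 genes were lower in each of the treated groups than in control cells. The H3 sum was 6.59 ± 0.914 FPKM with 10 mM 2-DG, 7.55 ± 1.52 with 5 mM 2-DG, 5.44 ± 0.750 with 10 nM oligomycin and 6.81 ± 1.09 with 1 nM oligomycin, against 14.4 ± 2.24 in control cells (SD, n = 3 each). The highest treated sample, with 9.24 FPKM at 5 mM 2-DG, lay under the lowest control sample, with 11.9 FPKM. The H4 sum was 16.1 ± 2.91 FPKM with 10 mM 2-DG, 16.5 ± 0.499 with 5 mM 2-DG, 9.38 ± 2.31 with 10 nM oligomycin and 10.6 ± 0.478 with 1 nM oligomycin, against 16.4 ± 0.881 in control cells. Here the oligomycin samples, at 7.82 to 12.03 FPKM, lay under the control range of 15.9 to 17.5, and the 10 mM 2-DG samples, at 13.3 to 19.1, spanned it. Hist1h4i carried this separation. The other 11 H4 genes summed to 7.91 ± 2.095 FPKM with 10 mM 2-DG, 7.11 ± 0.453 with 5 mM 2-DG, 5.51 ± 2.18 with 10 nM oligomycin and 6.45 ± 1.17 with 1 nM oligomycin, against 7.60 ± 1.02 in control cells, and all 4 treated groups overlapped the control range of 6.44 to 8.31.

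The H1 and H2B sums were also led by single genes, and the sums without these genes were chosen after values were seen. The H1 sum, of which Hist1h1c made up most, was 21.8 ± 0.329 FPKM with 10 mM 2-DG, 17.7 ± 1.03 with 5 mM 2-DG, 38.0 ± 6.90 with 10 nM oligomycin and 28.2 ± 1.78 with 1 nM oligomycin, against 15.6 ± 0.552 in control cells. Without Hist1h1c, the remaining 5 H1 genes summed to 1.41 ± 0.441, 1.16 ± 0.0740, 0.983 ± 0.322 and 1.07 ± 0.138 FPKM in the same treated groups, against 1.78 ± 0.384 in control cells. The whole H2B sum was 19.7 ± 0.922 FPKM with 10 mM 2-DG, 17.5 ± 2.12 with 5 mM 2-DG, 27.1 ± 7.54 with 10 nM oligomycin and 20.8 ± 1.80 with 1 nM oligomycin, against 21.4 ± 0.972 in control cells, and only the 5 mM 2-DG samples lay apart from the controls. The H2B sum without Hist1h2bc was 5.51 ± 0.717 FPKM with 10 mM 2-DG, 6.08 ± 1.57 with 5 mM 2-DG, 5.59 ± 1.06 with 10 nM oligomycin and 5.34 ± 0.808 with 1 nM oligomycin, against 8.98 ± 0.227 in control cells. All 12 treated samples of this smaller sum, up to 7.60 FPKM, lay under the control range of 8.75 to 9.21.

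The sum over the whole family did not separate in this way. All 57 members summed to 65.6 ± 4.11 FPKM with 10 mM 2-DG, 60.7 ± 4.31 with 5 mM 2-DG, 81.1 ± 16.3 with 10 nM oligomycin and 67.3 ± 4.42 with 1 nM oligomycin, against 70.0 ± 4.18 in control cells, and the ranges of every treated group overlapped that of the controls except 5 mM 2-DG, which ran from 55.8 to 64.0 against 65.2 to 73.2 FPKM. Sums without Hist1h1c, Hist1h2bc and Hist1h4i were chosen after values were seen, and Hist1h1c and Hist1h2bc were called higher with 10 nM oligomycin. Leaving those 2 out therefore takes most from the sum of that group. These sums were 23.0 ± 3.45, 23.3 ± 3.11, 18.7 ± 2.52 and 20.6 ± 1.63 FPKM in the treated groups in the same order, against 34.9 ± 2.30 in control cells. The highest treated sample of these sums had 26.8 FPKM and the lowest control sample 32.2. The 13 H2A genes together reached only 1.53 ± 0.729 FPKM with 10 mM 2-DG, 1.36 ± 0.355 with 5 mM 2-DG, 1.20 ± 0.244 with 10 nM oligomycin and 0.949 ± 0.0960 with 1 nM oligomycin, against 2.08 ± 0.456 in control cells.

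For single genes, limma was run on log2(FPKM + 1) of 13284 genes that reached 1 FPKM in 3 or more samples, and a gene was called at an adjusted p under 0.05. This scale understates changes of low genes. The 17 members that were tested comprised 1 H1, 3 H2B, 7 H3 and 6 H4 genes. They were the members above 1 FPKM in some group, except that Hist1h4a was tested with group means under 1 FPKM and Hist1h2bk was not tested. Hist1h3a and Hist1h3h passed the filter only through the control samples, and Hist1h3d, Hist1h4a and Hist1h4m also needed single groups, so those genes had to differ in some measure. Counts against control, and between the higher doses, are therefore also given for the 12 members that did not depend on any 1 group. The 4 comparisons with control share the same 3 control samples.

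With 10 mM 2-DG, 2 of the 17 tested members were higher and 5 lower than in control cells (41.2% called), where 48.2% of all tested genes were called, 21.4% higher and 26.8% lower. With 5 mM 2-DG, limma called 0 higher and 3 lower (17.6%), where 35.3% of all tested genes were called, 15.0% higher and 20.3% lower. At an unadjusted p under 0.05 the 5 mM counts were 2 higher and 5 lower. These shares rest on 17 members, most with few reads, so they are not read as a difference from all genes. The median change of the tested members was -0.11 with 10 mM and -0.12 with 5 mM 2-DG, against -0.03 and -0.024 over all tested genes. Leaving out 1 sample moved these medians between -0.20 and -0.047 with 10 mM and between -0.13 and -0.025 with 5 mM 2-DG, the values furthest from the full ones being those without the second 10 mM sample, the first control sample and the second 5 mM sample. Among the 12 members that did not depend on 1 group, 2 were higher and 3 lower with 10 mM, and 0 higher and 2 lower with 5 mM 2-DG.

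With 10 nM oligomycin, 2 members were higher and 8 lower than in control cells (58.8% called), where 75.8% of all tested genes were called, 34.0% higher and 41.7% lower. With 1 nM oligomycin, 1 was higher and 7 lower (47.1%), where 63.0% of all tested genes were called, 29.8% higher and 33.2% lower. Among the 12, there were 2 higher and 6 lower with 10 nM and 1 higher and 5 lower with 1 nM. The median change of the tested members was -0.53 with 10 nM and -0.37 with 1 nM oligomycin, against -0.08 and -0.025 over all tested genes. These medians turned positive, at 0.69 and 0.29, when only the 3 members with at least 5 FPKM were kept. With 3 members the median is the change of 1 gene, Hist1h2bc, which was not called with 1 nM. Hist1h1c lay above it, at 1.35 and 0.92, and Hist1h4i under 0, at -1.04 and -0.94.

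**Figure D3:**
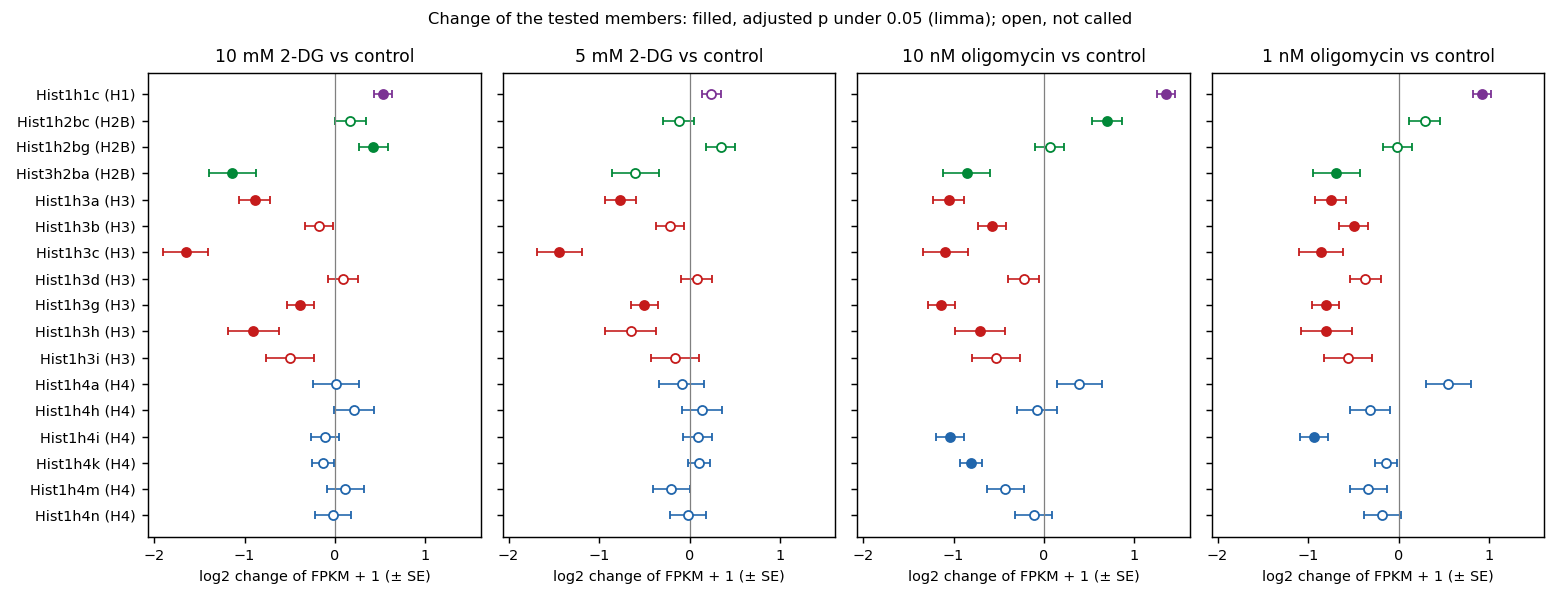
Log2 change of FPKM + 1 against control (± SE, limma) of the 17 tested members, with 10 mM 2-DG, 5 mM 2-DG, 10 nM oligomycin and 1 nM oligomycin from left to right. Filled points are called and open points are not, and colours give the histone type. The H3 genes called are all to the left of 0 in all 4 panels, Hist1h1c is to the right, and Hist1h4i is called with oligomycin only, to the left.

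Hist1h1c encodes a linker histone that binds the nucleosome where DNA enters and leaves it (ENSMUSG00000036181, chr13:23738808-23740367). It had the highest level of the family and was higher in treated than in control cells. Hist1h1c had 20.7, 20.2 and 20.2 FPKM with 10 mM 2-DG, 17.2, 15.4 and 17.02 with 5 mM 2-DG, 29.2, 41.3 and 40.5 with 10 nM oligomycin and 29.2, 25.6 and 26.4 with 1 nM oligomycin, against 13.4, 14.1 and 13.9 FPKM in control cells. Every treated sample lay above all control samples, and the oligomycin samples lay above all 2-DG samples. The log2 change was 0.53 ± 0.10 with 10 mM 2-DG (adjusted p = 6.5e-04), 1.35 ± 0.10 with 10 nM oligomycin (2.2e-08) and 0.92 ± 0.10 with 1 nM oligomycin (2.6e-06), which are 1.48, 2.68 and 1.96 times the control mean. With 5 mM 2-DG it was 0.24 ± 0.10, which did not pass (adjusted p = 0.077) but passed under 4 of 14 alternatives.

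Hist1h2bc (ENSMUSG00000018102) encodes an H2B core histone. Its level was 13.1, 14.6 and 14.8 FPKM with 10 mM 2-DG, 13.4, 10.9 and 10.0 with 5 mM 2-DG, 13.99, 24.7 and 25.7 with 10 nM oligomycin and 15.8, 14.3 and 16.3 with 1 nM oligomycin, against 11.7, 13.2 and 12.4 FPKM in control cells. Samples of both oligomycin groups lay above the controls, and those of the 2-DG groups overlapped them. With 10 nM oligomycin Hist1h2bc rose by 0.69 ± 0.17 on the log2 scale (adjusted p = 0.0019), whereas its change of 0.29 ± 0.17 with 1 nM did not pass (adjusted p = 0.15), nor did 0.17 ± 0.17 and -0.12 ± 0.17 with 10 mM and 5 mM 2-DG.

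For both of these genes the first 10 nM oligomycin sample was lower than the other 2. That sample also stood apart from its group across genes by their length. The rank correlation between the exon length of 13275 genes and their deviation from the group mean was 0.52 in it, against -0.46 and -0.38 in the other 2, and between -0.35 and 0.36 in the other groups. Genes are not independent replicates. Histone genes are short, with a median length of 618 bases over the 57 members, and Hist1h1c and Hist1h2bc have 1560 and 1156 bases. Where these 2 stand among the lengths of the 13275 genes is not given here. The part of length in the lower values of these 2 genes in that sample was not tested. Without that sample the change of Hist1h1c with 10 nM oligomycin was 1.503 ± 0.06 and that of Hist1h2bc 0.96 ± 0.10.

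**Figure D4:**
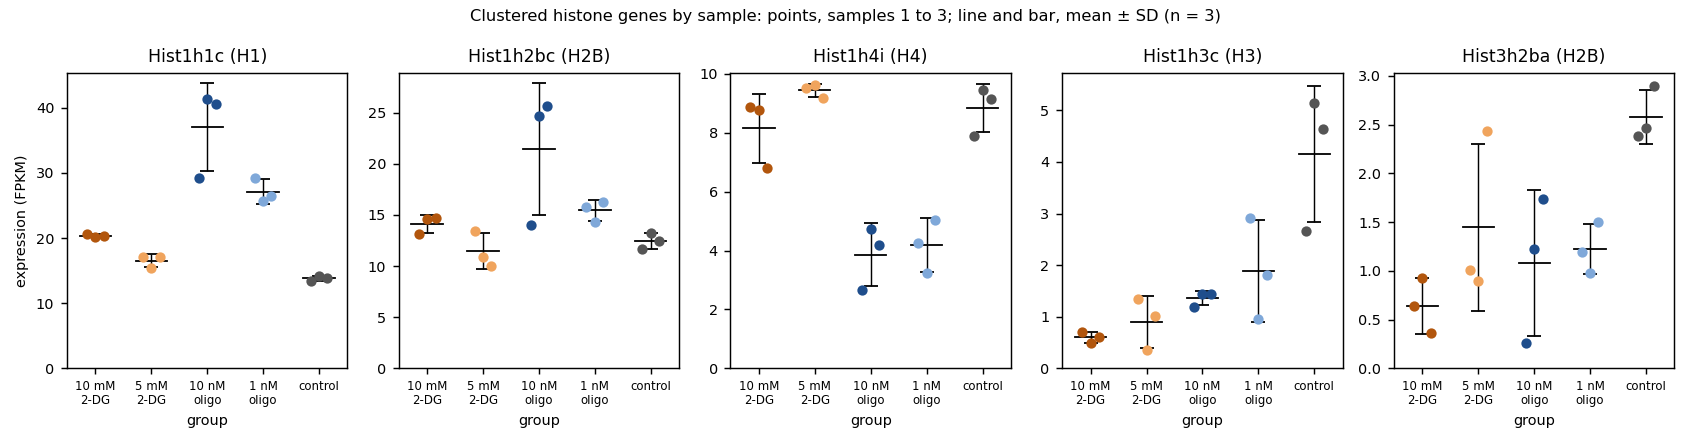
FPKM of Hist1h1c, Hist1h2bc, Hist1h4i, Hist1h3c and Hist3h2ba in each of the 15 samples, with the mean and SD of each group (n = 3). Hist1h1c is above the controls in all treated samples. All oligomycin samples of Hist1h4i lie under all its other samples, and Hist1h3c and Hist3h2ba have their highest means in control cells.

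The H4 gene Hist1h4i (ENSMUSG00000060639, chr13:22040636-22041362) was lower with oligomycin, by more than the spread between samples, and was not called with 2-DG. Its level was 8.88, 8.79 and 6.81 FPKM with 10 mM 2-DG, 9.51, 9.63 and 9.18 with 5 mM 2-DG, 2.67, 4.73 and 4.18 with 10 nM oligomycin and 4.26, 3.23 and 5.05 with 1 nM oligomycin, against 7.90, 9.46 and 9.15 FPKM in control cells. All oligomycin samples lay under all other samples. Hist1h4i fell by 1.04 ± 0.16 on the log2 scale with 10 nM oligomycin (adjusted p = 3.0e-05) and by 0.94 ± 0.16 with 1 nM (adjusted p = 1.3e-04). Its change was -0.11 ± 0.16 with 10 mM 2-DG (adjusted p = 0.60) and 0.09 ± 0.16 with 5 mM 2-DG (adjusted p = 0.70). The difference between the agents at their higher doses was itself called, at 0.93 ± 0.16 in 10 mM 2-DG over 10 nM oligomycin (adjusted p = 9.7e-05).

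Hist1h4k, given by sample after its values were seen, was the other H4 gene called against control. It had 0.892, 1.17 and 1.06 FPKM with 10 mM 2-DG, 1.62, 1.23 and 1.37 with 5 mM 2-DG, 0.173, 0.172 and 0.513 with 10 nM oligomycin and 0.840, 1.22 and 1.04 with 1 nM oligomycin, against 1.56, 1.08 and 1.10 FPKM in control cells. The 10 nM samples, which rest on 1, 1 and 3 reads, were the lowest of all 15. Hist1h4k fell by 0.81 on the log2 scale with 10 nM oligomycin against control (adjusted p = 3.0e-05), and by 0.67 against 1 nM (adjusted p = 5.2e-04). Hist1h4h, Hist1h4m and Hist1h4n, with group means of 0.578 to 2.28 FPKM, and Hist1h4a were not called against control in any group.

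The 7 tested H3 genes, which encode the replication-coupled form of H3, were never called higher against control. Of them 4 were lower with 10 mM 2-DG, 3 with 5 mM 2-DG, 5 with 10 nM oligomycin and 5 with 1 nM oligomycin, where 26.8%, 20.3%, 41.7% and 33.2% of all tested genes were lower. Among the 4 H3 genes that passed the filter without depending on 1 group (Hist1h3b, Hist1h3c, Hist1h3g and Hist1h3i), 2 were lower at each 2-DG dose and 3 at each oligomycin dose. Hist1h3a, Hist1h3c and Hist1h3g were lower in all 4 comparisons, although Hist1h3a passed the filter through the controls only.

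Hist1h3c (ENSMUSG00000069310, chr13:23744973-23745602) had the highest mean of the H3 genes over all 15 samples and in control cells. With 2-DG other H3 genes were above it, as Hist1h3b had 1.37 FPKM with 10 mM where Hist1h3c had 0.604. Its values were 0.707, 0.495 and 0.611 FPKM with 10 mM 2-DG, 1.34, 0.347 and 1.02 with 5 mM 2-DG, 1.20, 1.45 and 1.44 with 10 nM oligomycin and 2.91, 0.953 and 1.80 with 1 nM oligomycin, against 2.67, 5.15 and 4.64 FPKM in control cells. Only 1 treated sample, the first with 1 nM oligomycin, reached into the control range. Behind these values were 21, 31, 48 and 67 reads in the treated groups in the same order, against 140 in control cells. Hist1h3c fell by 1.65 ± 0.25 on the log2 scale with 10 mM 2-DG (adjusted p = 9.6e-05) and by 1.44 ± 0.25 with 5 mM 2-DG (adjusted p = 5.0e-04). With oligomycin it fell by 1.09 ± 0.25 at 10 nM (adjusted p = 0.0011) and by 0.86 ± 0.25 at 1 nM (adjusted p = 0.0078).

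Hist1h3g, also given by sample after its values were seen, had 1.05, 1.18 and 1.14 FPKM with 10 mM 2-DG, 1.06, 1.14 and 0.705 with 5 mM 2-DG, 0.407, 0.101 and 0.302 with 10 nM oligomycin and 0.594, 0.927 and 0.306 with 1 nM oligomycin, against 1.33, 2.11 and 1.95 FPKM in control cells. No treated sample reached the lowest control sample. Hist1h3g fell by 1.13 ± 0.15 on the log2 scale with 10 nM oligomycin (adjusted p = 8.2e-06) and by 0.80 ± 0.15 with 1 nM (adjusted p = 3.4e-04). The falls of 0.50 with 5 mM 2-DG (adjusted p = 0.018) and 0.39 with 10 mM 2-DG (adjusted p = 0.046) were lost under 5 and 11 of 13 alternatives, among them those without the second or the third control sample. The test of 10 mM 2-DG over 10 nM oligomycin gave 0.75 ± 0.15 for this gene (adjusted p = 4.5e-04).

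The other H3 genes had lower counts. Hist1h3b averaged 1.37 ± 0.265 FPKM with 10 mM 2-DG, 1.32 ± 0.408 with 5 mM 2-DG, 0.809 ± 0.330 with 10 nM oligomycin and 0.896 ± 0.143 with 1 nM oligomycin, against 1.69 ± 0.325 in control cells, and was called lower with both oligomycin doses. Its 1 nM call was lost with the length adjustment (-0.36, adjusted p = 0.064). Hist1h3a averaged 0.235 ± 0.114, 0.375 ± 0.388, 0.100 ± 0.101 and 0.366 ± 0.200 FPKM in the treated groups in the same order, against 1.29 ± 0.237 in control cells, with no overlap between treated and control samples. Hist1h3h averaged 0.524 ± 0.220, 0.840 ± 0.450, 0.740 ± 0.198 and 0.731 ± 0.704 FPKM in those groups, against 1.89 ± 0.739 in control cells. Without the second 1 nM sample its change with 1 nM oligomycin was -0.45 (adjusted p = 0.13), against -0.80 with all samples. Its calls with 10 mM 2-DG and with oligomycin were each lost under 4 to 8 alternatives, and leaving out the second control sample ended all of them. Hist1h3d, at 0.487 to 1.06 FPKM, and Hist1h3i, at 0.740 to 1.55 FPKM in the group means, were not called against control.

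Among the lower H2B genes, Hist3h2ba of the Hist3 cluster (ENSMUSG00000056895, chr11:58948920-58949533) was lower with 10 mM 2-DG and with oligomycin. It had 0.634, 0.931 and 0.358 FPKM with 10 mM 2-DG, 1.01, 0.891 and 2.44 with 5 mM 2-DG, 0.263, 1.23 and 1.74 with 10 nM oligomycin and 1.20, 0.978 and 1.496 with 1 nM oligomycin, against 2.38, 2.46 and 2.89 FPKM in control cells. The third 5 mM 2-DG sample was the only treated one within the control range. Hist3h2ba fell by 1.14 ± 0.26 on the log2 scale with 10 mM 2-DG (adjusted p = 0.0026), by 0.86 ± 0.26 with 10 nM oligomycin (adjusted p = 0.0083), and by 0.53 without the first 10 nM sample (adjusted p = 0.043), and by 0.69 ± 0.26 with 1 nM oligomycin (adjusted p = 0.032). The 1 nM call was lost without any 1 of the control samples and without the first or second 1 nM sample.

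Hist1h2bg moved the other way. It averaged 1.43 ± 0.169 FPKM with 10 mM 2-DG, 1.30 ± 0.192 with 5 mM 2-DG, 0.897 ± 0.248 with 10 nM oligomycin and 0.832 ± 0.529 with 1 nM oligomycin, against 0.810 ± 0.158 in control cells. Its rise of 0.43 ± 0.16 with 10 mM 2-DG (adjusted p = 0.042) was lost under 8 of 13 alternatives, among them each one that left out a 10 mM sample or the second or the third control sample. Hist1h2bk, which was not tested, averaged 0.341 ± 0.231, 0.190 ± 0.127, 0.640 ± 0.285 and 0.416 ± 0.348 FPKM in the treated groups in the same order, against 1.01 ± 0.471 in control cells.

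Between doses, few members differed. With 10 nM over 1 nM oligomycin, 1 of 17 was higher and 1 lower (11.8%), where 46.4% of all tested genes were called, 18.7% higher and 27.6% lower. Hist1h1c was higher by 0.42 ± 0.10 on the log2 scale (adjusted p = 0.0036), with overlapping groups, and Hist1h4k was the lower one; both were among the 12 members that did not depend on 1 group. With 10 mM over 5 mM 2-DG, limma called 0 members, where 5.86% of all tested genes were called, 3.41% higher and 2.45% lower, and at an unadjusted p under 0.05 there was 1, Hist1h1c, at 0.29 ± 0.10 (adjusted p = 0.11).

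With 10 mM 2-DG over 10 nM oligomycin, 5 members were higher and 2 lower (41.2%), where 70.8% of all tested genes were called, 37.7% higher and 33.2% lower. Among the 12 members that did not depend on 1 group, 4 were higher and 2 lower. The 5 were Hist1h4i, Hist1h3g, Hist1h4k, Hist1h3b and Hist1h4m, and of these the calls of Hist1h3b (0.40 ± 0.16, adjusted p = 0.033) and Hist1h4m (0.54 ± 0.21, adjusted p = 0.031) were each lost under 6 alternatives. The first was lost without the third 10 nM or the second or the third 10 mM sample, and Hist1h4m without the second 10 nM or the first or second 10 mM sample. Hist1h4m passed the filter only with both its control and its 10 mM 2-DG samples, so it had to be high in those groups. Hist1h1c was lower by this comparison, at -0.81 ± 0.10 (adjusted p = 5.3e-06), and so was Hist1h2bc, at -0.52 ± 0.17 (adjusted p = 0.013), which was lost without the second or the third 10 nM sample and was -0.79 without the first.

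The machinery that makes and handles histone mRNA was read from lists of its genes. Slbp, which encodes the protein that binds the stem-loop, averaged 11.5 FPKM with 10 mM 2-DG, 13.3 with 5 mM 2-DG, 5.86 with 10 nM oligomycin and 7.98 with 1 nM oligomycin, against 15.9 in control cells, and was lower in all 4 comparisons, by 0.43, 0.24, 1.30 and 0.91 on the log2 scale (adjusted p from 1.3e-09 to 0.022). Casp8ap2, whose product is needed at the histone locus body, averaged 4.33 FPKM with 10 nM and 7.04 with 1 nM oligomycin, against 11.9 in control cells, and was lower in both. Npat, which encodes the coactivator of histone genes, averaged 7.95 FPKM with 10 nM oligomycin against 11.1 in control cells and was lower there, by 0.44, but was not called in the other comparisons with control. Of the 19 tested genes for histone gene transcription and 3' processing, 1 was higher and 9 lower with 10 mM 2-DG, 1 and 4 with 5 mM 2-DG, 0 and 16 with 10 nM oligomycin, and 1 and 15 with 1 nM oligomycin. The shares called were 52.6%, 26.3%, 84.2% and 84.2%, where those of all tested genes were 48.2%, 35.3%, 75.8% and 63.0%.

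Lsm6, which encodes a subunit of the ring that binds the ends of decaying histone mRNA, averaged 9.46 FPKM with 10 mM 2-DG, 11.5 with 5 mM 2-DG, 4.599 with 10 nM oligomycin and 6.00 with 1 nM oligomycin, against 13.02 in control cells. For 16 genes of histone mRNA translation and decay, the counts were 1 higher and 3 lower with 10 mM 2-DG, 0 and 2 with 5 mM 2-DG, 2 and 13 with 10 nM oligomycin, and 2 and 12 with 1 nM oligomycin. The shares called were 25.0% and 12.5% with 2-DG, under those of all tested genes (48.2% and 35.3%), and 93.8% and 87.5% with oligomycin (75.8% and 63.0% of all). Of 22 histone chaperone genes, 2 were higher and 8 lower with 10 mM 2-DG, 1 and 5 with 5 mM 2-DG, 0 and 20 with 10 nM oligomycin, and 1 and 18 with 1 nM oligomycin. Here 45.5% and 27.3% were called with 10 mM and 5 mM 2-DG, which for a list of 22 is near the 48.2% and 35.3% of all tested genes. With 10 nM and 1 nM oligomycin 90.9% and 86.4% were called, above the 75.8% and 63.0% of all. Nasp, which encodes a chaperone of H3, H4 and linker histones, averaged 89.3 FPKM with 10 mM 2-DG, 104 with 5 mM 2-DG, 27.5 with 10 nM oligomycin and 56.5 with 1 nM oligomycin, against 125 in control cells. Of 49 tested genes of DNA replication and S phase, 0 were higher and 42 lower with 10 mM 2-DG, 1 and 28 with 5 mM 2-DG, 0 and 49 with 10 nM oligomycin, and 0 and 49 with 1 nM oligomycin. That was 85.7% and 59.2% called with 10 mM and 5 mM 2-DG, above the 48.2% and 35.3% of all tested genes. With oligomycin it was 100% at each dose, all lower, where 75.8% and 63.0% of all tested genes were called, 41.7% and 33.2% lower. Ccne1, which encodes cyclin E1 of the entry into S phase, averaged 37.8 FPKM with 10 mM 2-DG, 52.4 with 5 mM 2-DG and 33.1 with 1 nM oligomycin, against 82.6 in control cells. The median changes of the list were -0.38, -0.23, -1.38 and -0.80, further from 0 than the medians over all tested genes given with the comparisons.

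Histone genes outside the clusters mostly give polyadenylated mRNA, and many of them, though not all, are expressed through the cell cycle. The 11 listed summed to 712 to 741 FPKM with 10 mM 2-DG, 794 to 834 with 5 mM 2-DG, 356 to 475 with 10 nM oligomycin and 472 to 499 with 1 nM oligomycin, against 736 to 827 in control cells. H2afz, which encodes the H2A variant H2A.Z, averaged 305 FPKM with 10 mM 2-DG, 363 with 5 mM 2-DG, 91.1 with 10 nM oligomycin and 131 with 1 nM oligomycin, against 307 in control cells, and fell with oligomycin by 1.76 and 1.23 on the log2 scale. Of 11 such genes, 0 were higher and 5 lower with 10 mM 2-DG, 0 and 3 with 5 mM 2-DG, 1 and 9 with 10 nM oligomycin, and 1 and 9 with 1 nM oligomycin. With 10 mM and 5 mM 2-DG 45.5% and 27.3% were called, which for a list of 11 is near the 48.2% and 35.3% of all tested genes. At each oligomycin dose 90.9% were called, against 75.8% and 63.0% of all. H1f0, a linker histone gene known for its expression in differentiated cells, was the higher one with oligomycin. H1f0 averaged 22.6 FPKM with 10 mM 2-DG, 19.99 with 5 mM 2-DG, 43.5 with 10 nM oligomycin and 32.8 with 1 nM oligomycin, against 26.8 in control cells. It rose by 0.67 and 0.28 on the log2 scale with 10 nM and 1 nM oligomycin and, unlike Hist1h1c, fell by 0.24 and 0.41 with 10 mM and 5 mM 2-DG (limma, adjusted p from 2.3e-06 to 0.022).

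Markers of cell types moved with oligomycin as well. All 15 embryonic stem cell markers had values above 0 in every sample, and they summed to 1798 to 1841 FPKM with 10 mM 2-DG, 1983 to 2096 with 5 mM 2-DG, 518 to 660 with 10 nM oligomycin and 1301 to 1408 with 1 nM oligomycin, against 2259 to 2454 in control cells. All 15 were lower with 10 nM and 14 with 1 nM oligomycin, while 3 were higher and 6 lower with 10 mM 2-DG, and 4 higher and 4 lower with 5 mM 2-DG. Of the 22 fibroblast markers, 21 were tested, and 20 were higher with 10 nM and 19 with 1 nM oligomycin, and 0 lower. Their sum was 2046 to 2190 FPKM with 10 mM 2-DG, 1768 to 1909 with 5 mM 2-DG, 6661 to 6880 with 10 nM oligomycin and 4848 to 4943 with 1 nM oligomycin, against 2040 to 2089 in control cells. The shares of stem cell markers called were 60.0% with 10 mM and 53.3% with 5 mM 2-DG, and those of fibroblast markers 42.9% at each dose, against 48.2% and 35.3% of all tested genes. With 10 nM and 1 nM oligomycin the shares were 100% and 93.3% of stem cell and 95.2% and 90.5% of fibroblast markers. Over all tested genes they were 75.8% and 63.0%, of which 41.7% and 33.2% lower and 34.0% and 29.8% higher. The only fibroblast marker at 0 in any sample was S100a4. With 10 mM 2-DG, 4 fibroblast markers were higher and 5 lower, and with 5 mM 2-DG 2 were higher and 7 lower. The 12 macrophage markers summed to 82.9 to 85.1 FPKM with 10 mM 2-DG, 89.8 to 91.8 with 5 mM 2-DG, 190 to 200 with 10 nM oligomycin and 165 to 213 with 1 nM oligomycin, against 154 to 173 in control cells. Of 11 tested, 1 was higher and 6 lower with 10 mM 2-DG, 1 and 7 with 5 mM 2-DG, 6 and 3 with 10 nM oligomycin, and 5 and 3 with 1 nM oligomycin. These are 63.6%, 72.7%, 81.8% and 72.7% called, where 48.2%, 35.3%, 75.8% and 63.0% of all tested genes were called. The part of a change in cell types, or in the share of cells in S phase, in the changes of the histone genes was not tested.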

How the data were processed

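RNA sequencing of 15 samples was analysed from 1 table of FPKM values deposited by the authors, with 1 value per gene and sample. Per the submitters' processing notes, HISAT2 2.1.0, Bowtie2 2.2.3, HTSeq 0.6.0 and build GRCm38 were used, with no role given for each. Another 1 line of the table named no gene and was left out. Values were whole multiples of the worth of 1 read for 99.3% to 99.5% of low values, within 0.05 of a whole number (chance gives 10%), and reads per gene and depths were worked out from these steps with exon lengths of GENCODE M21. All 57 members had the same coordinates there.

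The 13284 genes that reached 1 FPKM in 3 or more samples were fitted as log2(FPKM + 1) with limma 3.58.1 in R 4.3.3, with 1 mean per group over all 15 samples, a trended prior, two-sided moderated tests and Benjamini-Hochberg adjustment over all tested genes in each of 7 comparisons, at 0.05. The script was tested on simulated data. Errors of changes are standard errors and those of FPKM standard deviations (n = 3). Python 3.11.15, numpy 2.4.6, pandas 2.3.3 and matplotlib 3.10.9 were used.

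The members and gene lists were chosen with earlier results of these data known. Members whose mean reached 1 FPKM in a group were described. Values by sample were given for called members with at least 5 FPKM (up to 6 with the largest change in each comparison), the highest member of each type and those of Hist3 and Hist4, but not for H2A, whose genes were all under 1 FPKM. Slbp, Npat and Casp8ap2 were named whatever their values, and from each list up to 3 genes with the largest changes could be named, of which some are printed. Sums, sequence features and lists were described without tests. Sums by type and cluster were planned, and those without Hist1h1c, Hist1h2bc or Hist1h4i were chosen after values were seen. Alternatives were another pseudocount, no filter or one at 5 FPKM, 2 other scalings, a fit of the compared groups only, a replicate block, each sample left out in turn and, chosen after seeing the data, a length adjustment. Sequence came from annotated transcripts and RefSeq promoter windows, and protein sequence was not used here.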

Additional observations from a re-analysis of the deposited data

How the results depend on the processing

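Of 119 results for single members, 37 were called, 26 of these under all alternatives and 11 not under at least 1. Another 20 were called under at least 1 alternative only, and 0 turned their direction. Few reads lie behind most members, which limits these calls, and the cause of the changes below was not tested except where fewer members were left.

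With a pseudocount of 0.1, which weights low genes more, the median change of the tested members was -0.231 with 10 mM 2-DG, -0.345 with 5 mM 2-DG, -1.034 with 10 nM oligomycin and -0.822 with 1 nM oligomycin against control, and 0.406 in 10 mM 2-DG over 10 nM oligomycin. Under it, 1 member was higher and 3 lower with 10 mM 2-DG, and 2 were lower with 10 nM over 1 nM oligomycin. Without a filter all 57 members were tested, and the medians were -0.114 and -0.141 with 10 nM and 1 nM oligomycin and 0.036 in 10 mM 2-DG over 10 nM oligomycin. There, 5 members were lower with 5 mM 2-DG, 1 higher with 10 mM 2-DG, and 3 higher in 10 mM 2-DG over 10 nM oligomycin.

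With a filter at 5 FPKM, only 3 members were left. Their median was 0.169 with 10 mM 2-DG, 0.089 with 5 mM 2-DG, 0.694 with 10 nM oligomycin and 0.289 with 1 nM oligomycin against control, 0.404 with 10 nM over 1 nM oligomycin, 0.289 with 10 mM over 5 mM 2-DG and -0.525 with 10 mM 2-DG over 10 nM oligomycin. Of them, 1 was lower at each oligomycin dose, 0 lower with either 2-DG dose or with 10 nM over 1 nM oligomycin, 1 higher with 10 mM 2-DG and 1 higher in 10 mM 2-DG over 10 nM oligomycin.

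Median-of-ratios scaling and quantile normalization each gave 1 higher member with 5 mM 2-DG and 2 with 10 nM over 1 nM oligomycin. Quantile normalization also gave 1 with 10 mM over 5 mM 2-DG and a median of -0.426 with 10 nM oligomycin. A fit of the compared groups only gave 2 higher with 5 mM 2-DG, 2 with 1 nM oligomycin and 1 with 10 mM over 5 mM 2-DG. The length adjustment gave 2 higher with 5 mM 2-DG, 3 with 1 nM oligomycin, 2 with 10 nM over 1 nM oligomycin, 1 with 10 mM over 5 mM 2-DG and 3 with 10 mM 2-DG over 10 nM oligomycin, and a median of -0.333 with 10 nM oligomycin.

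Whether the replicate numbers pair the samples is not known, and the correlations that follow cannot decide it. Same-numbered samples of different groups had correlations of -0.238 to 0.371 in their deviations from the group means over 30 pairs. For differently numbered samples they were -0.35 to 0.246 over 60 pairs. With the replicate number as a block, 1 member was higher and 4 lower with 10 mM 2-DG and 8 were lower with 1 nM oligomycin, and the counts of the other comparisons did not change.

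Leaving out 1 sample at a time gave 1 to 2 members higher and 3 to 5 lower with 10 mM 2-DG, and a median of -0.631 to -0.44 with 10 nM oligomycin. It gave 1 to 2 higher with 1 nM oligomycin, 1 to 2 higher and 1 to 2 lower with 10 nM over 1 nM oligomycin, and a median of -0.148 to 0.129 with 10 mM over 5 mM 2-DG. In 10 mM 2-DG over 10 nM oligomycin it gave 3 to 5 higher and 1 to 3 lower.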
